A study of Mus musculus with 44 samples.

Results

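The m6A landscape of unexposed liver was described from 527 peaks found in vehicle-treated mice on a high-fat diet. They are the control peaks of the immunoprecipitate against input (620 peaks) that overlapped, by 1 bp or more of the same strand and chromosome, a control peak called against IgG. The held peaks made up 85.0% of the 620 (Wilson 95% interval 82.0 to 87.6%) and lay on 232 Ensembl gene identifiers. With a reciprocal overlap of 50% in place of 1 bp, 341 peaks (55%) would be held. All 8 peak lists of the series together held 17573 peaks. The other 93 control peaks were called against input only.

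The control animals were male C57Bl/6J mice given vehicle on a diet whose fat supplied 42% of the energy. The other mice ate the same diet and received Aroclor1260, PCB126 or both by mouth at week 2, and every group was followed to week 12. Liver RNA of 5 control libraries was sequenced as input and 5 libraries were m6A immunoprecipitates, with 1 IgG library titled as a pool. The sources used here do not give the vehicle, the doses or the age of the animals, and no group on an ordinary diet was analysed here, so every value describes liver on the fatty diet.

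N6-methyladenosine is a methyl group on adenosine that a nuclear methyltransferase complex adds to messenger RNA while it is made. The mark is found mainly in a short sequence context, in long internal exons and near stop codons, and reader proteins of the YTH family bind it and alter the decay, splicing or translation of the transcript. In hepatocytes, which secrete most plasma proteins and lipoproteins, the transcripts of metabolic and regulatory genes carry it.

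Each list was called once for a whole group, so the values carry no error between mice and no depth, and intervals cover counting error only. Fold enrichment is the authors' linear ratio of m6A immunoprecipitate over the reference. No genome sequence was at hand, so the letters beneath the peaks could be read only where a RefSeq promoter window (300 bases, GRCm38.p6) reached into them. That was so for 15 members, in 13 stretches of at least 20 bases. The stretches were read on the strand of the peak for 18 words of 5 letters, the DNA forms of the m6A context. Each word starts with A, G or T, goes on with A or G, then AC, and ends with A, C or T. Of the 13 stretches, 5 held such a word and 1 held one with the core GGAC. Sites from 5 members are shown because they are the places where the data and the letters meet. Capitals mark the word. The sites are Apob chr12:7977698-7977715, Amotl2 chr9:102717837-102717853, Hand2 chr8:57321036-57321060, Zrsr1 chr11:22972831-22972855 and chr11:22972878-22972902, and the unnamed identifier ENSMUSG00000043013 chr9:74863260-74863284, all on the plus strand of mm10.
Apob: cgaAGACCctgtagagca
Amotl2: cctccgttgcTGACTgt
Hand2: cagcccaagaGAACCgccgccgctg
Zrsr1 first site: gtaccacggaTAACCggataactgc
Zrsr1 second site: gataaccgagTGACTgcgcaggtag
ENSMUSG00000043013: cgttcccaggGGACCctttcggacc

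The Apob site lies near the annotated start of the gene for apolipoprotein B, on which very-low-density lipoprotein is built. Its stretch was 29 bases long, and 35.3% of all 32851 promoter windows held one of the words in a stretch of that length. The stretch of Amotl2, which encodes a cell junction protein of the angiomotin family, was 55 bases long against a share of 57.3%. For Hand2, a transcription factor, it was 78 bases against 74.9%. The stretch of Zrsr1, a splicing factor gene nested inside Commd1, held 5 words in 137 bases against 87.3%. That of ENSMUSG00000043013 held 6 in 272 bases against 97.9%. These shares are so high that a match describes the letters of the stretch and nothing more. None of the strongest peaks could be read in this way, and 0 members overlapped a microRNA hairpin of the RefSeq table.

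Of the 232 identifiers, 210 could be named by position, and 205 of the named genes were protein-coding, 4 were long noncoding RNAs and 1 was a transcribed pseudogene. The strand was very uneven. On the plus strand lay 490 members (93.0%, 90.5 to 94.9%), whereas 49.9% of the coding genes with a strand in the RefSeq tables are on it. Among member genes with a known strand, 154 were on the plus and 6 on the minus strand. Of the 37 minus-strand members, 25 overlapped a control peak of the opposite strand, so reads of both transcripts cannot be told apart there. The same held for 17 of the 490 plus-strand members. A gene missing from these lists therefore cannot be called unmethylated, least of all one on the minus strand.

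Enrichment was modest for most members. The fold against input ran from 1.06, at Igfbp4, to 37.3, at Jund, with a median of 2.55 and quartiles of 1.75 and 3.8. It was under 2 for 168 members (31.9%), at least 5 for 90, at least 10 for 24 and at least 20 for 3. Against IgG the same members had a median of 4.5 and a range of 1.3 to 41.5. The IgG fold was higher than the input fold in 468 members, lower in 53 and equal in 6, and the median ratio of both was 1.64. Over the 527 members the ranks of both folds had a Spearman rho of 0.72. Both folds share the same m6A libraries, and neighbouring members often share 1 IgG peak, so this is a description only.

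**Figure D1:**
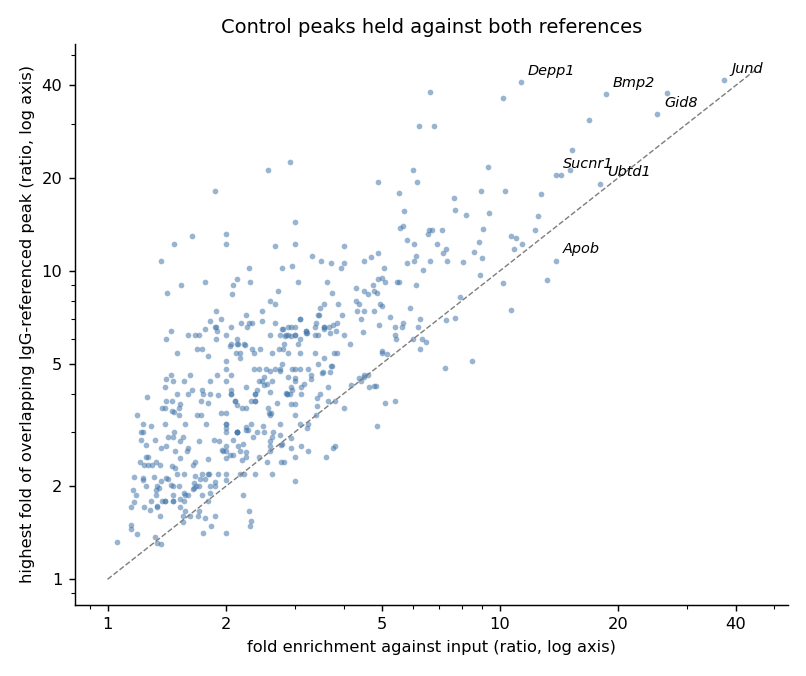
Fold enrichment of each of the 527 member peaks against input (horizontal, log scale) and against IgG (vertical, log scale), both linear ratios from the authors' lists with 1 value per group of 5 mice. Most points (468) lie above the line of equal folds, and Jund stands highest on both axes.

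The strongest member was a single exonic block of 1276 bp in Jund, which is part of the AP-1 transcription factor, with folds of 37.3 against input and 41.5 against IgG. An unnamed minus-strand identifier lies opposite it and had a member of 26.7. Gid8, part of a multi-subunit ubiquitin ligase known as GID, had 25.2 and 32.2 in a block of 494 bp. Bmp2, through which endothelial cells of the liver induce hepcidin, had 18.6 against input and 37.5 against IgG. Among the 527 members, Jund ranked 1 on both, Gid8 3 and 7, and Bmp2 4 and 5.

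The other strong members lay in genes of varied function. Agtr1a, the angiotensin II receptor of hepatocytes and vessels, had a block of 1195 bp with a fold of 16.9 against input and 30.9 against IgG, and Sucnr1, the receptor for succinate, had 13.9 and 20.4 over 1044 bp. Ubtd1, which encodes a ubiquitin-domain protein, had 18 and 19.2 in only 198 bp. Arf6, a small GTPase of endocytic traffic, had 12.7 and 17.8, and Rnf144b, a ubiquitin ligase, had 15.1 and 21.2. The unnamed identifier ENSMUSG00000036181 on chromosome 13 had 15.3 and 24.7, and Smim10l1, a small membrane protein gene, 12.3 and 13.6. Each of these members lay in 1 block and was found in all 8 lists. Of the 20 members strongest against input, 10 were also among the 20 strongest against IgG. Depp1, which had 11.3 against input, reached 41.0 against IgG.

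On the list of AP-1 and immediate early genes, 15 had a peak somewhere in the series and 8 had a member. The share over all 1361 loci with a symbol was 15.4%. Klf9, a glucocorticoid-induced Krüppel-like factor, had members of 12.5 near the end of its span and of 5.17. Myc, the growth regulator, had one of 8.93 in a block of 643 bp, centred 604 bp from the 3′ end of the span, and a weaker one of 1.88. Gadd45g, a stress-response gene, had 6.62, and Klf15 and Klf2 had top folds of 4.84 and 4.78. Tob1, which recruits the deadenylase to messenger RNA, had a top fold of 3.85. Dusp6, a phosphatase of ERK, had 4 members between 1.60 and 3.71. The 17 members of this list had a median fold of 3.71, against 2.55 over all members.

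Of 9 named hepatocyte transcription factors with a peak in any list, 4 had a member (44.4%, against 15.4% over all loci). Cebpb, which drives the acute-phase response, had a block of 1165 bp with 13.2 against input and 9.31 against IgG, one of the 53 members lower against IgG. Cebpa, its relative in hepatocyte identity, had 5.08 over 846 bp and 1.96. Onecut2 had 6 members from 1.91 to 5.79, of which the strongest was 900 bp wide. Foxq1, a forkhead factor, had 3 members, all weak, from 1.40 to 2.23. Hnf4a, Cebpd, Rxra, Zhx2 and Xbp1 had a control peak against IgG but none against input. Both clock genes with a member differed widely. Bhlhe40, a repressor in the clock loop, had 14.3 over 893 bp and members of 2.24 and 2.2 nearer its start, whereas the 4 members of Dbp, a clock output factor, lay between 1.17 and 2.25.

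Among the lists with at least 10 loci, that of lipoprotein genes had the highest share, with a member in 7 of 11 loci. The share over all loci was 15.4%. The 17 members of this list had a median fold of 2.93. Apob had 7 members that together covered 9196 exonic bases. The widest members of all were 3 of these, with widths of 2848, 2149 and 1948 bp and folds of 6.05, 13.9 and 7.34. They stood side by side, with centres between 0.743 and 0.865 of the gene span, and 6 of the 7 had the same fold of 10.8 against IgG. The first Apob member, which holds the site printed above, had only 1.34. Apoa5, an activator of triglyceride clearance, had 7.17 over 1484 bp and 2.59. The remaining apolipoproteins of the list were lower, with 2.28 at Apoa1, 1.95 at Apoe and 2.22 at both members of Apof.

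Secreted plasma proteins were likewise split between strong and weak members. Fga, the fibrinogen alpha chain, had a member of 1678 exonic bp in 3 blocks with a fold of 11, and Crp, C-reactive protein, had 1248 bp in 2 blocks with 10.3. The remaining plasma protein and coagulation members were weaker. Mbl1, mannose-binding lectin, had 4 members from 1.28 to 4.50, and Kng1, kininogen, 3 from 1.72 to 3.53. Hp, haptoglobin, had 3.09 at both of its members. Cp, ceruloplasmin, had 3 members from 1.33 to 2.32 and F10, coagulation factor X, 3 from 1.24 to 1.36. Of 21 plasma protein loci 5 had a member and of 10 coagulation loci 2. For complement it was 0 of 4.

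In glucose and insulin control, 5 of 17 loci had a member (29.4%, against 15.4% over all loci). Foxo1, the transcription factor that insulin signalling removes from the nucleus, had a member of 1743 exonic bp in 3 blocks with 6.36 and a further 3 from 1.23 to 2.60. Ppp1r3b and Ppp1r3g, which target protein phosphatase 1 to glycogen, had single wide blocks of 1940 and 1597 bp with 6.14 and 6.11. Trib1, a pseudokinase linked to blood lipids, had 4 members from 1.75 to 5.48. Igfbp4, a binding protein of insulin-like growth factors, had 1.34 and 1.06. Of the fatty acid oxidation list 2 of 10 loci had a member. These were Ppara, the nuclear receptor that drives that pathway, with 8.59 over 648 bp, and Slc27a2, a fatty acid transporter, with 3 members from 1.22 to 2.09.

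Among cytokine and growth factor receptors and their signalling genes, 5 of 15 loci had a member (33.3%, against 15.4% over all loci). Besides Agtr1a these were Tnfsf10, the death ligand TRAIL, with 7.29, Lifr, the leukaemia inhibitory factor receptor, with 5.80, Ifngr1, an interferon gamma receptor chain, with 2.67, and Socs5, a suppressor of cytokine signalling, with 3 members from 2.37 to 3.25. The unfolded protein response had 3 of 7. Ppp1r15b, which directs the dephosphorylation of eIF2 alpha, had 5.39 and 2.75. Hspa5, the chaperone BiP, had 4.93, 1.53 and 1.49, and Dnajb12, a co-chaperone, had 4.79. The ubiquitin list had 3 of 10, which were Gid8, Ubtd1 and Kbtbd7 with 4.6. It leaves out other ubiquitin genes with a member, among them Rnf144b with 15.1 and Usp10 with a top fold of 9.39.

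Among genes of the m6A machinery with a peak in any list, 1 of 3 had a member. Ythdf3, a cytoplasmic reader of the mark, had folds of 10.2 against input and 36.4 against IgG in a block of 696 bp, and a weaker member of 1.45. Zc3h13 and Ythdc1 had control peaks against IgG alone. Of 13 loci of xenobiotic metabolism, 1 had a member (7.69%, against 15.4% over all loci). This was Fmo5, a flavin monooxygenase, with 2.43 and 1.47, and the 12 Cyp symbols with a peak in any list had 0 members. Cyp4a10 and Cyp2f2 had control peaks against input only, with 1.57 and 1.2, and Cyp2c29 and Cyp2e1 against IgG only. Bile acid transport had Slco1b2, an uptake carrier of hepatocytes, with 4 members from 1.45 to 3.61, as its only locus of 7. Lipogenesis had Acsl1, an acyl-CoA synthetase, with 4 members from 1.84 to 2.94, out of 8.

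In most of the other lists 1 locus or 0 had a member. Bach1, a haem-regulated repressor of antioxidant genes, had 5 members from 1.56 to 3.11 and was the 1 locus of 10 in glutathione, metal and oxidative defence. Zc3h4, which restrains unproductive transcription, had 3 from 1.33 to 3.94 among 8 chromatin loci. Bmp2 was the 1 of 10 in BMP, TGF beta and WNT signalling. Malat1, a nuclear long noncoding RNA, had 1 member of 96 bp and 2.25. Cholesterol synthesis (2 loci), amino acid and urea metabolism (10) and microRNA and decay factors (4) had 0. All lists are short, no share was tested, and the share over all loci with a symbol was 15.4%. The 22 member identifiers without a name could not count in any list.

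The lists also gave a check of the tissue. Of 12 hepatocyte markers, 7 had a peak in any list, 6 a control peak against IgG and 2 (Apob and Apoa1) a member. Over all loci with a symbol and a peak, 15.4% had a member. Of 14 markers of sinusoidal endothelium, 4 had a peak in any list and 3 had a member, namely Bmp2, Eng with 3.70 and Ptprb with 7.63. Markers of macrophages, stellate cells, cholangiocytes, lymphocytes, neutrophils and erythroid cells had 0 members, but only 2, 1, 1, 0, 0 and 0 of them, in that order, had a peak in any list. A peak list does not measure expression, and in bulk liver fewer cells of a type and less RNA per cell cannot be told apart.

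Members were mostly short. The median exonic width was 250 bp, with quartiles of 149 and 450 bp and a range from 95 to 2848 bp. A single block made up 428 members (81.2%), and 68, 20, 9, 1 and 1 members had 2, 3, 4, 5 and 6 blocks. The median fold was 2.545 with 1 block and 2.55 with more. The most blocks lay in Cald1, which encodes the actin-binding caldesmon, with 6, and in Tax1bp1, an autophagy receptor, with 5. Kng1, Pdia3 and Mia2 had members of 4. Width and fold went together, with a Spearman rho of 0.65 over 527 members, in which both values come from the same libraries and the same caller. The 32 members of at least 1000 bp had a median fold of 6.25. The 169 members of up to 150 bp had 1.74, and 4 of these reached 5. The narrowest were those of Ndufc2, a subunit of respiratory complex I, and of the identifier ENSMUSG00000101845, each of 95 bp, followed by Malat1 with 96 bp. A width of 99 bp was shared by several members, among them those of Apol9b and ENSMUSG00000079334.

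**Figure D2:**
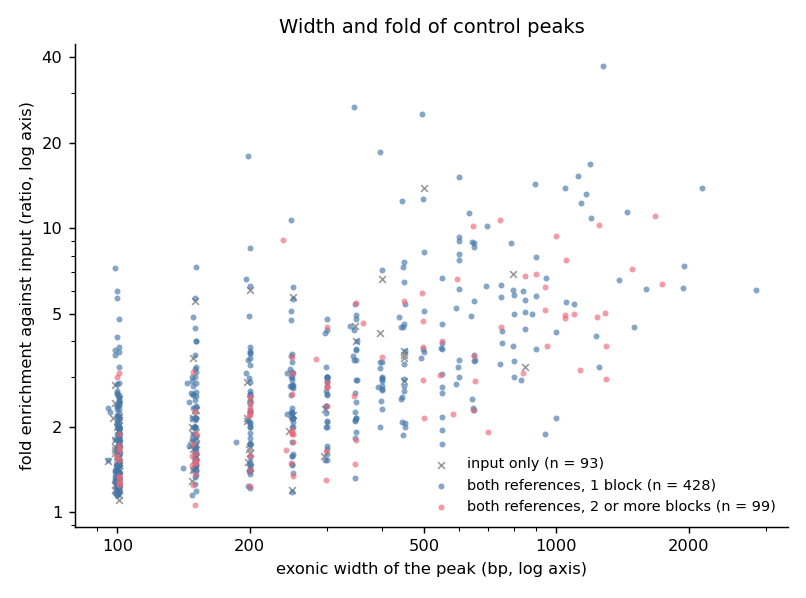
Exonic width in bp (horizontal, log scale) against fold over input (vertical, log scale) for the 527 members and the 93 control peaks called against input only. Wide peaks lie high, with a median fold of 6.25 at 1000 bp or more, and the input-only peaks crowd at the low, narrow end.

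With the 1 bp rule, 140 of the 232 identifiers carried more than 1 member. A single member was found on 92 identifiers (39.7%), and 63, 38, 18, 10, 6, 4 and 1 identifiers had 2, 3, 4, 5, 6, 7 and 9. The mean was 2.27 and the median 2. The median was 1 with a reciprocal overlap of 50% (mean 1.74) and among peaks with folds of at least 2 (mean 1.71). Members of a gene lay close together. Of 295 neighbouring pairs, 189 (64.1%) were at most 500 bp apart, 91 of them at most 100 bp, and the median gap was 215 bp. Only 34 were more than 5000 bp apart. The strongest member of a gene exceeded its weakest by a median of 2.31 times over the 140 identifiers with several, and by at least 2 times in 84.

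Hivep1, a large zinc finger protein, had the most members. Its 9 ranged from 1.47 to 4.00 and formed 2 groups, 5 with centres from 0.775 to 0.803 of the span and 4 from 0.976 to 0.995. Son, a splicing cofactor of nuclear speckles, had 7 members from 1.19 to 4.79, the last of them centred at 0.376 of its span. Smcr8, a partner of C9orf72 in autophagy, had 7 from 1.23 to 3.38. Apon had 7 from 1.60 to 3.00 within 1102 bp, but some of these were the same stretch called repeatedly. Members that share exonic bases with another of the same identifier numbered 18, on Apon, Chmp1b, Epm2aip1, Rnpepl1 and Zrsr1. Overlaps between different identifiers are not in this count. Both identifiers named Lrrc8a had members over nearly the same blocks, with 6.22 and 6.79, and members of ENSMUSG00000043013 and ENSMUSG00000093662 also overlapped. Bcl9l, a coactivator of beta-catenin, Usp10, a deubiquitinase, Cald1, Fam214a and Mia2, a factor of secretory export, had 6 members each, as did Onecut2. Of these, Usp10 had the highest fold, with 9.39 in 996 bp.

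Positions could be given for 493 members, as the centre of the peak along the RefSeq gene span in the direction of transcription. Introns count in that span, and exons, coding parts and UTRs could not be told apart without an annotation of the build. The median relative position was 0.755, where 1 is the 3′ end. The last 20% of the span held 219 members (44.4%, 40.1 to 48.8%), the first 20% held 75 (15.2%) and the middle 199 (40.4%). With the span divided into 10 equal parts, the last held 142 members and the one before it 77, while the sparsest, the fourth, held 18. When the strongest member of each gene was taken alone, 52.4% (45.6 to 59.0%) lay in the last 20%.

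Gene length went with this pattern. In genes with a span over 5000 bp, 50.4% (45.6 to 55.1%) of 417 members lay in the last 20%, against 11.8% (6.36 to 21.0%) of 76 in shorter genes, where 71.1% lay in the middle. Members near the start were weak. Of 126 in the lowest fold quartile, 12 lay within 500 bp of the start, and of 124 in the highest quartile 1 did. In the last 20% the median fold was 2.76, in the middle 2.37 and in the first 20% 1.96. Hp and Gadd45g had members close to the 3′ end, with centres 170 and 154 bp from it. Members of several blocks lay less often in the last 20% of the span (30.8%, 22.2 to 40.9%, of 91) than single-block ones (47.5%, 42.7 to 52.4%, of 402).

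**Figure D3:**
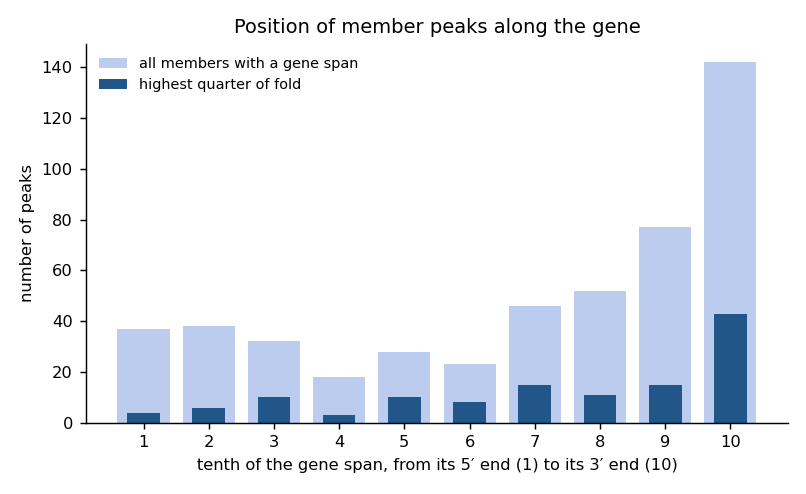
Number of member peaks in each of 10 equal parts of the RefSeq gene span, from the 5′ end on the left to the 3′ end on the right, for the 493 members with a span and for those in the highest fold quartile. The last of them holds 142 members, 43 of them in the highest quartile.

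Chromosome 9 held the most members, 66 on 20 identifiers, and the X chromosome 3, on Gjb1, a gap junction protein of hepatocytes with 2.93, and Ubqln2. Per 100 coding genes, however, chromosome 9 had 1.67 member identifiers, close to chromosomes 15 (1.68) and 8 (1.63), and the X chromosome had 0.21. The mitochondrial genome had 2 members, both in ND4, a subunit of respiratory complex I, with 2.77 and 1.25.

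The 93 control peaks that were called against input only differed from the members in several values. Their median fold was 1.67, their median width 147 bp, and 64.5% had a fold under 2. On identifiers that also had a member lay 45 of them, and 44 lay on identifiers without any IgG peak. Some were strong. Herc2, a large ubiquitin ligase, had 13.9, Il1r1, the interleukin 1 receptor, 6.87, Notch2 6.62, Myo9b 6.07 and St6gal1, the sialyltransferase of plasma glycoproteins, 5.52. Nectin1, Cnnm2, Sec62 and Prpf4b followed with 4.54 to 3.69. At the edge of the rule, 5 members overlapped an IgG peak by only 1 bp. These were peaks of Apol9b, Dbp, Cp, Upp2 and ENSMUSG00000103502 with folds of 1.17 to 1.45. Just outside lay peaks of Rapgef4, Zfpm1 and Bach1, 49 bp from an IgG peak, and of Ppp1r15b and ENSMUSG00000108391 at 50 bp, with folds of 1.2 to 1.56.

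The lists of the exposed groups were not used to choose the members and served as further readouts of the same loci. Against input, 54.6% (50.4 to 58.9%) of members were found in the Aroclor1260 list, 90.7% (87.9 to 92.9%) in the PCB126 list and 89.9% (87.1 to 92.2%) in that of both compounds. With each exposed list shortened to its 506 strongest peaks, the shares for PCB126 and for both compounds were 57.5% and 55.4%. Over all 620 control peaks, in the full lists, the shares were 50%, 88.2% and 87.4%. Against IgG the members' shares were 76.9%, 95.1% and 92.6%, and those of all control peaks 71.0%, 91.6% and 89.4%. Members stood above the input-only peaks, of which 23.7%, 74.2% and 73.1% were found against input. The differences were 31.0 points (Newcombe 95% interval 20.5 to 39.6), 16.5 (8.22 to 26.5) and 16.8 (8.36 to 26.9). Fold moved with this result, and members were also wider, with a median exonic width of 250 bp against 147 bp. Shares at equal width were not computed. Among peaks with a fold under 2, the shares were 40.5%, 84.5% and 80.4% of 168 members against 21.7%, 73.3% and 63.3% of 60 input-only peaks. From 2 to 5 they were 56.5%, 92.9% and 93.7% of 269 members against 29.6%, 74.1% and 88.9% of 27 input-only peaks. Among the 90 members with a fold of at least 5 they were 75.6%, 95.6% and 96.7%. The 6 input-only peaks of that fold had 16.7%, 83.3% and 100%, so members were not above them for the combination.

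A core of 240 members (45.5%, 41.3 to 49.8%) on 143 identifiers was present in all 8 lists. These members had a median fold of 3.0 and a median width of 349.5 bp, against 2.14 and 151 bp for the rest. The 10 strongest among them were those of Jund, Gid8, Bmp2, Ubtd1, Agtr1a, ENSMUSG00000036181, Rnf144b, Bhlhe40, Sucnr1 and Cebpb. Their folds across the groups were far from equal. The Jund member read 37.3 in control, 24.9 with Aroclor1260, 50.5 with PCB126 and 53.9 with both. Cebpb, however, read 13.2, 2.64, 26.8 and 3.15 in that order, and Ubtd1 18, 18, 24.3 and 21.2. Against IgG the same Cebpb member read 9.31, 25.3, 35.3 and 5.97, so its order across the groups differed with the reference. Over the 478 members found after PCB126 the fold had a median of 5.2, against 2.59 for the same members in control, and was higher in 460. After the combination it was 4.77 against 2.615 (higher in 440 of 474), and after Aroclor1260 2.745 against 2.93 (higher in 131 and lower in 150 of 288). An exposed fold is the highest among the exposed peaks that a member overlapped, whereas the control fold is the member's own. An exposed peak can also count for several members. Both choices can raise the exposed medians, and by how much was not tested. The 3 comparisons share the control list, and folds of separately called lists were not put on a common scale, so these medians describe the lists only.

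**Figure D4:**
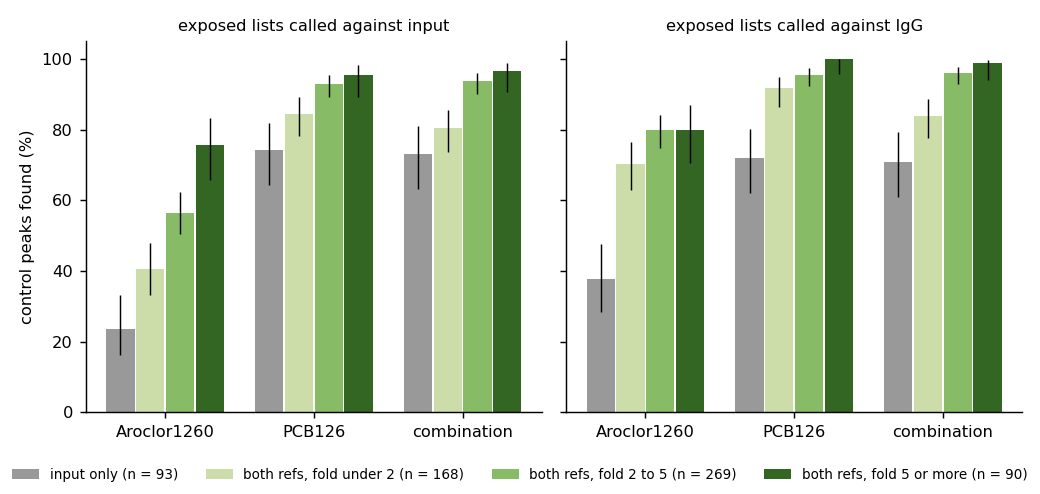
Percent of control peaks found in the full list of each exposed group, called against input (left) and against IgG (right), for the 93 input-only peaks and for members split by control fold (168 under 2, 269 from 2 to 5, 90 of 5 or more), with Wilson 95% intervals that cover counting error only. Each class of members stands above the input-only peaks, which are not split by fold. The lowest share of members is 40.5%, for those under a fold of 2 in the Aroclor1260 list against input.

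A few members were seen in control against input and in no exposed list of that kind. There were 18, with a median fold of 1.63, and 16 of them had a peak in an exposed list against IgG. The strongest were those of Ppig, a cyclophilin of splicing speckles, with 5.67 and 4.14, of Kbtbd7, a substrate adaptor of cullin 3, with 4.6, and of Slco1b2 with 3.61 and 2.79. Both members absent from all 6 exposed lists were weak, at Purg with 2.60 and at Lonp2, a peroxisomal protease, with 1.37.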

How the data were processed

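The submitters' processing notes name FastQC 0.10.1, bcl2fastq 2.20.0.422, BWA 0.7.17 and Trimmomatic, and the build mm10. The authors deposited 8 lists of peaks from MeTPeak, per the file titles; the sources used here do not give its version, settings or annotation. Per the file headers, each peak has a fold enrichment, which is a linear ratio, a p-value and 2 log10 columns, for the p-value and for the false discovery rate, all computed by the authors' caller for a whole group. The largest false discovery rate was 0.0309 in the control list against input and 0.049 in that against IgG. Read depth is unknown.

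Exonic width was the sum of a peak's blocks, and a member's fold against IgG the highest among the IgG peaks it overlapped. Its fold in an exposed list was likewise the highest among the peaks it overlapped there. Identifiers were named by position and strand from the RefSeq tables of GRCm38.p6, where a gene held at least 80% of the exonic peak bases. Of 1512 identifiers in all lists 1386 were named. A peak was found in another list when the spans overlapped by 1 bp on the same strand. Shares have Wilson 95% intervals and differences of shares Newcombe 95% intervals. Python 3.11.15, pandas 2.3.3, scipy 1.17.1 and statsmodels 0.14.6 were used, and the overlap step was tested on simulated peaks. No test across animals was possible. Alternatives were other overlap rules, thresholds, references and list lengths.

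The members and the 23 function and 8 marker lists were chosen with earlier results of these data known. Genes were named by a rule: the 15 identifiers of highest fold, the 10 with the most members, the 5 widest, 5 narrowest and 3 members of most blocks, every member in a list, the 5 strongest members in no exposed input list, the 10 strongest in all 8 lists, and the 10 strongest input-only peaks. Depp1, the genes with overlapping members, and those on the X and mitochondrial chromosomes were picked after their values were seen. A few genes that the rule names are not reported here.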

Additional observations from a re-analysis of the deposited data

How the results depend on the processing

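Of 59 alternative values 38 stayed within tolerance and 21 moved. Tolerance was 1.5 times for counts and the 95% interval of the value for shares, means and medians. With a reciprocal overlap of 50%, 341 peaks (55%) were held, with 1.74 per identifier on average, a median of 1 and a width of 251 bp, and 45.7% were found with Aroclor1260, 60.7% with PCB126 and 65.4% with both. With folds of at least 2, 90.3% were held, at a mean of 1.71 and a median of 1 per identifier, a width of 346 bp and 50% in the last 20% of the span, and 93.5% and 94.1% were found after PCB126 and the combination. Against IgG lists the found shares were 76.9%, 95.1% and 92.6%. With exposed lists shortened to their 506 strongest peaks, 57.5% were found after PCB126 and 55.4% after the combination, against 54.6% after Aroclor1260. The gap between the exposed groups was smaller in these lists. The shortening kept the highest folds, so list length and fold cannot be told apart. The median span was 300 bp. The cause of the moves was not tested. Overlap of blocks changed no value. Within tolerance, either strand gave 532 peaks on 236 identifiers, a log10 false discovery rate of -3 or lower 466 on 216, and named loci a mean of 2.28 per gene. No paired analysis was possible because each list was called for a whole group, and no replicate could be left out.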
